A study of Mus musculus with 10 samples.

Results

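Tight junctions are the belts of membrane strands that seal the space between neighbouring epithelial cells. The 10 genes described here encode the main tight junction proteins of the colon: the claudins Cldn2, Cldn3, Cldn4, Cldn7, Cldn8, Cldn15 and Cldn23, occludin (Ocln), zonula occludens 1 (Tjp1) and junctional adhesion molecule A (F11r). They were taken by gene symbol from the 55487 genes of an expression table of colonic intestinal epithelial cells (IECs), and all 10 were found. RNA came from 5 wild type (WT) mice and 5 RhoB-/- mice, labelled as homozygous knockouts of Rhob, a small GTPase that acts on the actin cytoskeleton, with 1 library whose Rhob level goes against its label (given below with the data). All mice were on the C57BL/6J background. The study's methods give an age of 6 to 8 weeks unless stated otherwise. The study's methods name no promoter or Cre that would limit the deletion to a cell type, and 1 library was made from each mouse. The study's methods state that WT males were purchased and that RhoB-/- mice were generated at another centre, so the source of the mice and the genotype cannot be told apart. The comparison asks whether tight junction transcripts differed between the genotypes.

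Claudins are membrane proteins that cross the membrane several times, and their extracellular loops decide what passes between cells. Cldn2 and Cldn15 form pores for small cations, and both are known from crypt cells. Cldn3, Cldn4, Cldn7, Cldn8 and Cldn23 are usually counted among the claudins that tighten the barrier, with Cldn8 typical of the distal colon and Cldn23 of surface cells. Occludin joins the same strands, junctional adhesion molecule A lies beside them, and zonula occludens 1 is the scaffold in the cytoplasm that ties the strands to actin.

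On GRCm38 (GENCODE release M21) Cldn3 (chr5:134986214-134987472, plus strand) and Cldn4 (chr5:134945119-134946934, minus strand) are neighbours 39.3 kb apart, and Cldn15 (chr5:136966616-136975858, plus strand) is on the same chromosome. Cldn2 lies at chrX:139800828-139811386 (plus strand), Cldn7 at chr11:69964779-69967885 (plus strand), Cldn8 at chr16:88560828-88563183 (minus strand) and Cldn23 at chr8:35824712-35826559 (minus strand). Ocln lies at chr13:100496507-100552718 (minus strand), Tjp1 at chr7:65296165-65527781 (minus strand) and F11r at chr1:171437535-171464603 (plus strand). Cldn3 shares 40 bases with the antisense gene Wbscr25, which had a mean TPM (a level scaled to transcript length and to the library's total) of 0.205. Tjp1 shares 1628 bases with the same-strand model Gm44792, which had a mean TPM of 3.47.

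RefSeq promoter sequence was at hand for 8 of the 10 genes, all but Cldn8 and Cldn23. The 3 windows below are the stretches before the RefSeq start, short of annotated exons, of the 2 genes called higher in RhoB-/- mice, Cldn7 and F11r, and of the pore claudin Cldn2, which was not called and had a lower mean in RhoB-/- mice. They run 5′ to 3′ on the plus strand of GRCm38.p6, with matches to a TATA box (TATAAA), a GC box (GGGCGG or its reverse complement) or a CDX core (TTTATG) in capitals.
Cldn7, chr11:69964529-69964778: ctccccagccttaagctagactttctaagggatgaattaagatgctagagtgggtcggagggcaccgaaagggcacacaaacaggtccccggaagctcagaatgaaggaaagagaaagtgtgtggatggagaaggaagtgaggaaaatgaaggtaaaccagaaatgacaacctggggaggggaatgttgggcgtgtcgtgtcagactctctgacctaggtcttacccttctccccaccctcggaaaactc
F11r, chr1:171437311-171437534: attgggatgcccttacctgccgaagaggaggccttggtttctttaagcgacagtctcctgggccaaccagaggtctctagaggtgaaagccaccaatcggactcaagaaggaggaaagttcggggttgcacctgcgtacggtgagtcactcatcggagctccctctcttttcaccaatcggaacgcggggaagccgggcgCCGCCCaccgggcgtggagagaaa
Cldn2, chrX:139800558-139800807: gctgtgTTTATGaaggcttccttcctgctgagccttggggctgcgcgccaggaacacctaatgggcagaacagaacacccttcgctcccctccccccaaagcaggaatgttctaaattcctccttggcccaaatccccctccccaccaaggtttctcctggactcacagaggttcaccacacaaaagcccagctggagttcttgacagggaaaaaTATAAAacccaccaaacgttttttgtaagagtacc
Distances are counted from the RefSeq start, which is the GENCODE gene start for Cldn7, 26 bases downstream of it for F11r (171437561) and 20 bases upstream of it for Cldn2 (139800808). Cldn2 had a TATA box 35 to 30 bases before that start and a CDX core 244 to 239 bases before it, and no GC box. F11r had a GC box 50 to 45 bases before its RefSeq start. The first Cldn7 window held none of these letters, and a GC box stood 6 to 1 bases before the start of a second, downstream Cldn7 transcript. Over all 32851 windows of this length, searched on both strands, 12.4% held TATAAA, 32.7% held GGGCGG and 10.8% held TTTATG. AACCNGTT, the core bound by grainyhead-like factors, was in 1.79% of windows and in none of these genes' windows.

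The data were TPM values for each library, with 20261 to 21344 genes above 0. TPM keeps no depth, so the read number behind a value is unknown. limma was run on log2(TPM + 1) for the 12870 genes whose TPM averaged 1 or more, and a gene was called at a Benjamini-Hochberg adjusted p below 0.05. All log2 fold changes are RhoB-/- over WT on that scale, which understates the change of low genes. Their median over all tested genes was -0.13. Transcripts of the mitochondrial genome accounted for 17.5% to 26.5% of TPM in WT and for 10.3% to 22.4% in RhoB-/- libraries, and their part in the results was tested only by leaving them out. Rhob had 171 to 389 TPM in WT mice, 0.09 to 0.57 TPM in RhoB-/- replicates 1 to 4, and 110.9 TPM in the library labelled RhoB-/- replicate 5. Summed epithelial markers were at 13325 to 15934 TPM in WT and 13532 to 20673 TPM in RhoB-/- libraries. Summed T cell markers were at 11.1 to 23.4 TPM in WT and 58.2 to 66.5 TPM in RhoB-/- libraries. Of 8 tested T cell markers 7 were called higher, beside 7.73% of all tested genes, and their part in the results was not tested. In such bulk samples fewer cells of a type and less RNA per cell cannot be told apart.

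All 10 genes passed the filter on low values. Cldn7 and F11r were higher and Cldn8 was lower in RhoB-/- mice, and the other 7 genes were not called. Of all tested genes, 21.2% were called, 7.73% higher and 13.5% lower. The median log2 fold change of the 10 genes was 0.26, and it was positive for 7 of them, against 34.6% of all tested genes. Centring each library on its median moved the median of all tested genes from -0.13 to -0.01 and that of the 10 genes to 0.37, and leaving out mitochondrial genes gave -0.20 and 0.18. With centring, 4 of the 10 genes were higher and 1 lower, beside 2004 higher and 1608 lower among all genes, against 995 and 1734 without it. Without mitochondrial genes, 3 of the 10 were higher and 2 lower, beside 1101 higher and 3729 lower among all genes. Without RhoB-/- replicate 5, the library with 110.9 TPM of Rhob, none of the 10 was called higher (Cldn7 at a limma adjusted p of 0.0816 and F11r at 0.106) and 1 was called lower. This was not particular to that library. None of the 10 was called higher either when WT replicate 1, 2 or 4 or RhoB-/- replicate 1 or 4 was left out. At the unadjusted p below 0.05 and fold above 1.5, thresholds met by 14.7% of all tested genes (6.37% higher, 8.33% lower), Cldn23 was higher and Cldn2 and Cldn8 were lower. The groups did not overlap for 14.5% of all tested genes (5.97% higher, 8.55% lower in RhoB-/-), and among the 10 genes this held for Cldn8, lower in RhoB-/-.

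**Figure D1:**
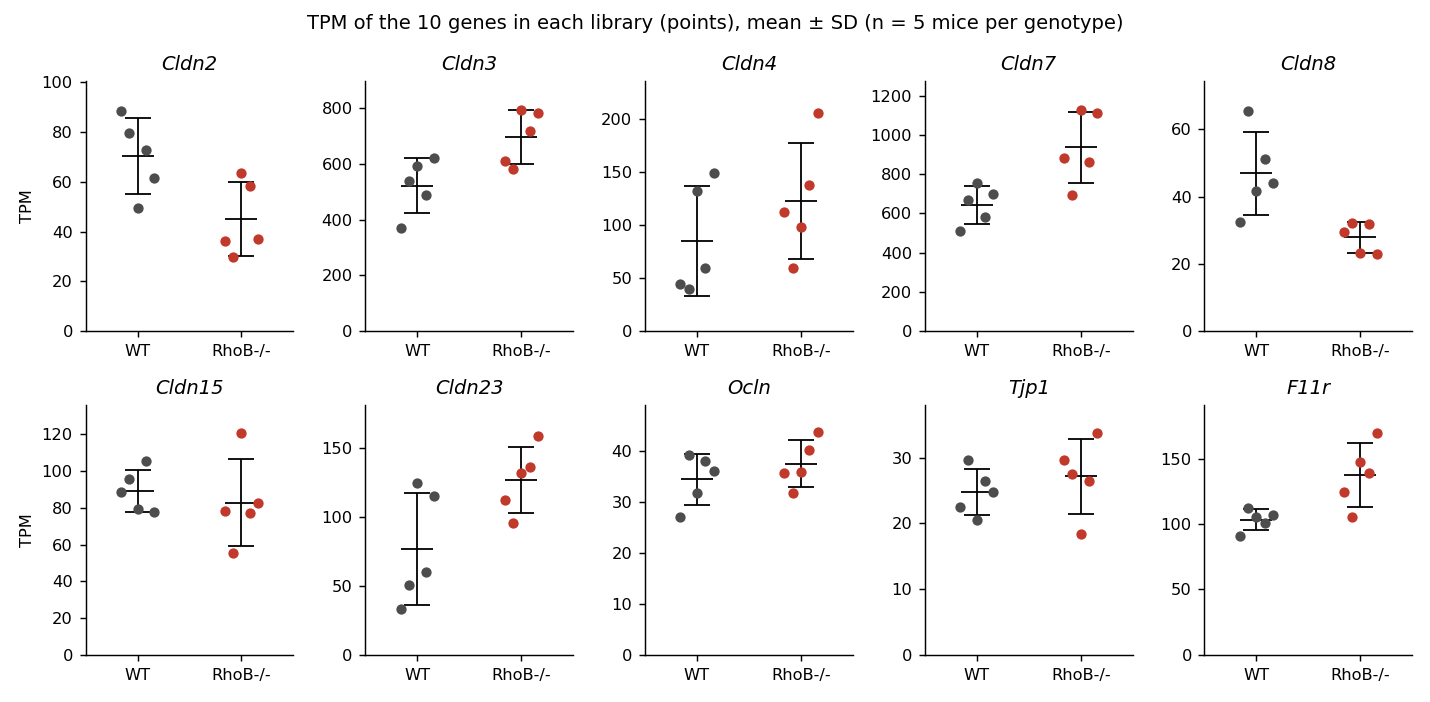
TPM of each of the 10 genes (vertical axes from 0) in the 5 WT and 5 RhoB-/- libraries, with points for libraries and bars for mean ± SD. The groups are apart only for Cldn8, with a highest RhoB-/- value of 32.15 and a lowest WT value of 32.51 TPM, while Cldn7 and F11r are higher on average in RhoB-/- with overlapping ranges.

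Of the 5 claudins that tighten the barrier, Cldn7 rose, Cldn8 fell and Cldn3, Cldn4 and Cldn23 were not called. Cldn8 had 32.5, 65.4, 41.6, 51.1 and 44.1 TPM in WT replicates 1 to 5 and 29.4, 32.15, 23.3, 31.8 and 22.8 TPM in RhoB-/- replicates 1 to 5. Every RhoB-/- library was below every WT library, though WT replicate 1, at 32.51 TPM, barely exceeded RhoB-/- replicate 2. The mean was 46.9 ± 12.3 TPM in WT (SD, n = 5) and 27.9 ± 4.55 TPM in RhoB-/- mice, 0.594 times the WT mean. The log2 fold change was -0.71 (SE 0.18, 95% interval -1.09 to -0.33, limma adjusted p = 0.0155). Cldn8 was the gene of the 10 that was called under all 18 other settings tried, with adjusted p between 0.00616 and 0.0444.

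Of 6 distal colon Hox genes, which mark position along the colon, 3 were tested, and Hoxb13 and Hoxa13 were called lower, as Cldn8 was. Among all tested genes 13.5% were called lower. Hoxb13 was at 50.02 to 135 TPM in WT and at 14.0 to 35.1 TPM in RhoB-/- animals. It was the 1 gene of the 3 whose groups did not overlap, beside 8.55% of all tested genes in that direction. Hoxa13 had a mean of 13.7 TPM in WT and 7.30 TPM in RhoB-/- animals, with overlapping groups. The list's summed TPM was 70.4 to 178 in WT and 20.3 to 49.3 in RhoB-/- libraries, without overlap, and its part in the Cldn8 result was not tested.

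Cldn7, the most abundant of the 10 genes, which also lies along the lateral membrane, rose. Its TPM was 511, 667, 754, 580.2 and 699 in WT replicates 1 to 5 and 884, 696, 1128, 863 and 1109 in RhoB-/- replicates 1 to 5. Of the RhoB-/- libraries, 4 were above the highest WT library, and replicate 2 lay within the WT range. The mean was 642 ± 96.9 TPM (SD, n = 5) for WT and 936 ± 182 TPM for RhoB-/- mice. The log2 fold change was 0.53 (SE 0.16, 95% interval 0.19 to 0.88, limma adjusted p = 0.0343). The call was lost when any of WT replicates 1, 2, 4 and 5 or RhoB-/- replicates 1, 4 and 5 was left out, with adjusted p up to 0.0876.

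Cldn3, the partner of Cldn7 in abundance, had 371, 539, 591, 489 and 619.8 TPM in WT replicates 1 to 5 and 608, 580.2, 794, 716 and 782 TPM in RhoB-/- replicates 1 to 5. The RhoB-/- libraries lay in the upper part of the WT range or above it. The log2 fold change was 0.43 (SE 0.16, 95% interval 0.08 to 0.77), which missed the threshold at a limma adjusted p of 0.0715. It passed after quantile normalization (0.00642), after centring on the median (0.0103) and without mitochondrial genes (0.0409).

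Relative to their means, Cldn4 and Cldn23 had the widest spread of the 10 genes in WT mice, with coefficients of variation of 60.7% and 52.9%. Cldn4, which seals against ions and is known from surface cells, had 44.9, 40.1, 133, 59.5 and 149.7 TPM in WT replicates 1 to 5 and 113, 59.4, 98.8, 138 and 206 TPM in RhoB-/- replicates 1 to 5. Cldn23 had 33.6, 50.8, 125, 59.9 and 115.5 TPM in WT replicates 1 to 5 and 113, 95.4, 132, 136 and 159 TPM in RhoB-/- replicates 1 to 5. WT replicates 3 and 5 were the highest WT libraries for both genes, as for Cldn3 and Cldn7, and lay within the RhoB-/- range, while the other WT libraries were below every RhoB-/- library for Cldn23. The log2 fold change of Cldn23 was 0.86, the largest in size among the 10 genes, but its error was large (SE 0.32, 95% interval 0.17 to 1.55, limma adjusted p = 0.0710), and it was called without WT replicate 3 (0.0278) and without WT replicate 5 (0.0400). The log2 fold change of Cldn4 was 0.62 (SE 0.41, 95% interval -0.27 to 1.51, limma adjusted p = 0.289). Among colonocyte markers, genes of mature surface cells, 5 of 10 were called higher (Car4, Aqp8, Krt20, Muc3 and Ceacam20), beside 7.73% of all tested genes. The log2 fold change was positive for 7 of the 10 and negative for the rest, with a median of 0.57. Among all tested genes 34.6% were positive. The summed TPM of these markers was 16123 to 23947 in WT and 20509 to 36196 in RhoB-/- libraries. Their part in the values of Cldn7, Cldn4 and Cldn23 was not tested.

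The pore claudins had lower means in RhoB-/- mice, and neither was called. Cldn2 had 88.5, 79.75, 49.4, 72.95 and 61.5 TPM in WT replicates 1 to 5 and 36.4, 29.9, 63.7, 58.3 and 37.25 TPM in RhoB-/- replicates 1 to 5. RhoB-/- replicates 3 and 4 reached into the WT range, and the other RhoB-/- libraries lay below it. The mean was 70.4 ± 15.3 TPM (SD, n = 5) for WT and 45.1 ± 14.9 TPM for RhoB-/- mice, with a log2 fold change of -0.66 (SE 0.22, 95% interval -1.14 to -0.18), which missed the threshold at a limma adjusted p of 0.0511. It was called under 7 of the 18 other settings.

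Cldn15 had 88.7, 95.5, 79.5, 105 and 77.6 TPM in WT replicates 1 to 5 and 78.1, 55.6, 120.5, 77.5 and 82.6 TPM in RhoB-/- replicates 1 to 5. The RhoB-/- libraries spread on both sides of the WT range. The log2 fold change was -0.14 (95% interval -0.52 to 0.24, limma adjusted p = 0.586). Proliferation markers, which crypt cells carry, were called lower for 3 of 10 genes (Mcm2, Mcm5 and Mki67), beside 13.5% of all tested genes. The median log2 fold change of the 10 proliferation markers was -0.59, beside -0.13 for all tested genes. It was positive for 0 of them, beside 34.6% of all tested genes. Their summed TPM was 313 to 426 in WT and 165 to 428 in RhoB-/- libraries. Of 7 tested crypt stem cell markers 1 was called higher and 2 lower, beside 7.73% and 13.5% of all tested genes. The summed TPM of the stem cell list was 157 to 195 in WT and 178 to 340 in RhoB-/- libraries. The part of either list in the Cldn2 values was not tested.

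Of the membrane and scaffold proteins other than claudins, F11r rose. F11r had 90.9, 113, 105, 101 and 107 TPM in WT replicates 1 to 5 and 125, 105, 148, 139 and 169.9 TPM in RhoB-/- replicates 1 to 5. RhoB-/- replicate 2 lay within the WT range and the other RhoB-/- libraries above it. The mean was 103 ± 8.15 TPM (SD, n = 5) for WT and 137 ± 24.3 TPM for RhoB-/- mice, with a log2 fold change of 0.39 (SE 0.13, 95% interval 0.11 to 0.67, limma adjusted p = 0.0489). With the p this close to the threshold, the call was kept in 1 of 10 fits that each left out a library, the fit without RhoB-/- replicate 2 (0.0141), and the highest adjusted p was 0.108.

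Ocln and Tjp1, whose proteins are common markers of tight junctions, did not pass the test. Ocln had 27.0, 39.2, 31.8, 38.05 and 36.0 TPM in WT replicates 1 to 5 and 35.7, 31.7, 35.8, 40.2 and 43.7 TPM in RhoB-/- replicates 1 to 5. Its groups overlapped, with a log2 fold change of 0.12 (95% interval -0.15 to 0.40, limma adjusted p = 0.501). Tjp1 had 22.4, 29.6, 20.6, 26.4 and 24.8 TPM in WT replicates 1 to 5 and 29.7, 27.5, 18.4, 26.5 and 33.8 TPM in RhoB-/- replicates 1 to 5. The lowest and the highest of the 10 Tjp1 values were both in RhoB-/- libraries, and the log2 fold change was 0.11 (95% interval -0.23 to 0.45, limma adjusted p = 0.625). These intervals bound the differences and do not show that the levels were equal.

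**Figure D2:**
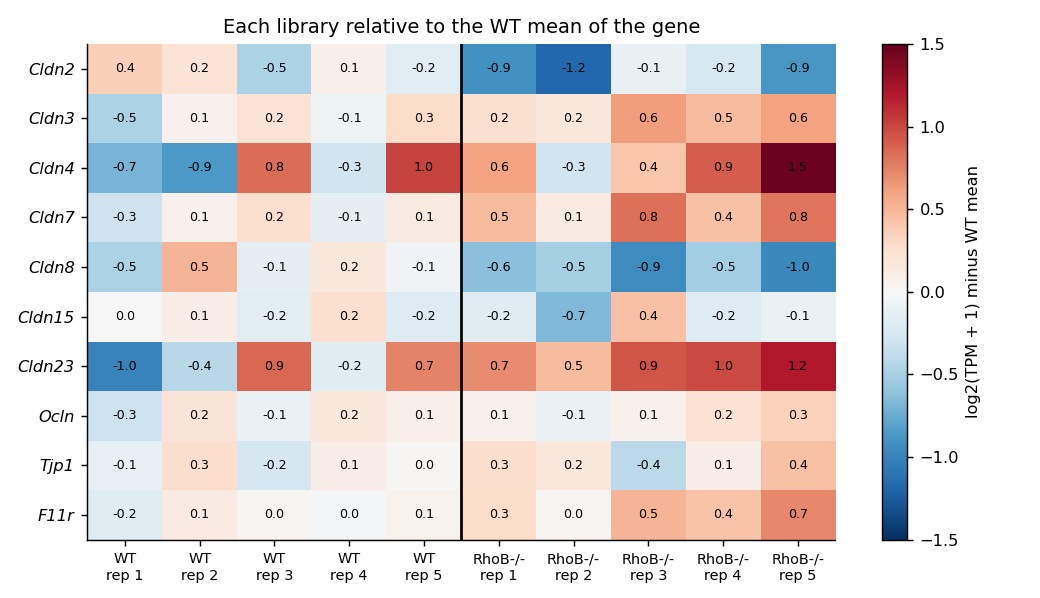
log2(TPM + 1) of each gene (rows) in each library (columns) minus the gene's WT mean, in red where above and in blue where below it, with the value in each cell. Cldn2 and Cldn8 are below their WT means in all 5 RhoB-/- libraries, and Cldn3, Cldn7, Cldn23 and F11r are above theirs in all 5. WT replicates 3 and 5 resemble the RhoB-/- libraries in Cldn4 and Cldn23.

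Because TPM is per transcript length, the levels of the genes can be set side by side. In WT mice the order of mean TPM was Cldn7, Cldn3, F11r, Cldn15, Cldn4, Cldn23, Cldn2, Cldn8, Ocln and Tjp1. Among neighbours in this order, WT ranges overlapped except between Cldn3 and F11r, at positions 2 and 3, while Cldn7 was above Cldn3 in 5 of 5 libraries of either genotype. In RhoB-/- mice Cldn23 stood at position 4 and Cldn15 at position 6, and Ocln stood above Cldn8, at positions 8 and 9. Cldn8 was above Ocln in 5 of 5 WT libraries and in 1 of 5 RhoB-/- libraries.

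The claudin mixture was described by the share of each of the 7 claudins in their summed TPM, which ran from 1170 to 1773 in WT and from 1548 to 2398 in RhoB-/- libraries. Cldn7 and Cldn3 together made up 74.6% to 78.4% of it in WT and 78.1% to 82.4% in RhoB-/- libraries. The share of Cldn7 was 42.0% ± 1.75 in WT and 45.8% ± 2.09 in RhoB-/- mice (SD, n = 5), and that of Cldn3 was 33.9% ± 1.44 and 34.4% ± 2.08. The mixture thus kept the same 2 leading claudins in both genotypes. The share of Cldn8 was 2.35% to 4.25% in WT and 0.951% to 2.08% in RhoB-/- libraries, and did not overlap. The share of Cldn2 was 4.83% ± 1.85 in WT and 2.20% ± 0.564 in RhoB-/- mice, and that of Cldn15 was 6.02% ± 1.54 and 4.03% ± 0.663. Together the 2 pore claudins took 7.27% to 15.1% in WT and 4.998% to 7.81% in RhoB-/- libraries, a narrow overlap at WT replicate 3 and RhoB-/- replicate 3. Within the pair, Cldn2 was at 0.621 to 0.998 times the TPM of Cldn15 in WT and at 0.451 to 0.752 times in RhoB-/- libraries. The share of Cldn23 was 4.79% ± 1.89 in WT and 6.23% ± 0.459 in RhoB-/- mice, and that of Cldn4 was 5.32% ± 2.52 and 5.90% ± 1.96. Shares sum to a fixed total, so a gain in one lowers the others, and no test was made of them.

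**Figure D3:**
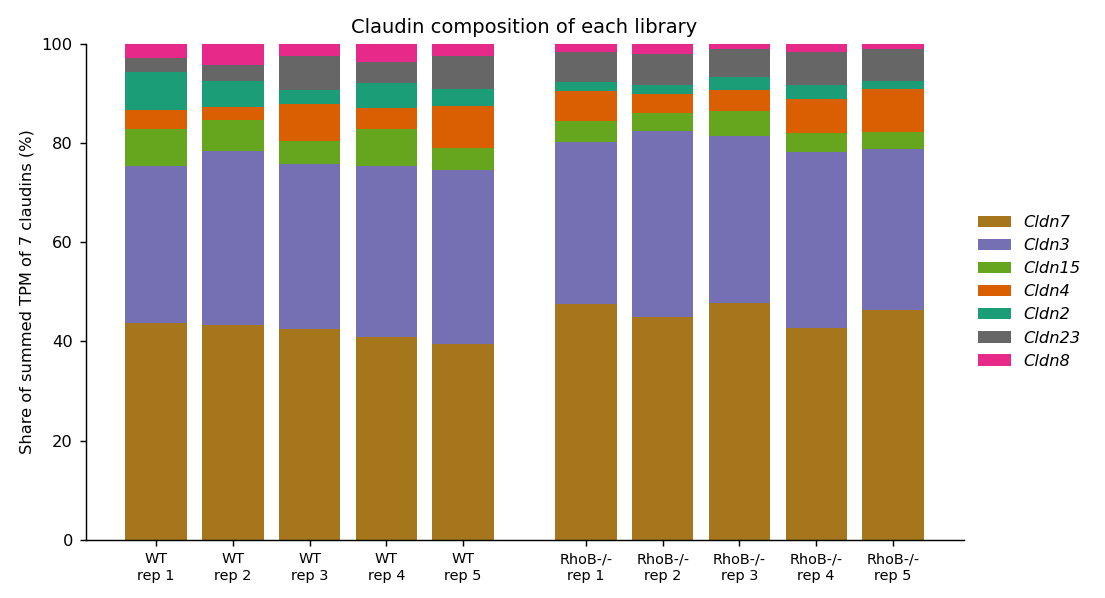
Share (%) of each of the 7 claudins in their summed TPM, 1 bar per library, 5 WT on the left and 5 RhoB-/- on the right. Cldn7 and Cldn3 fill 74.6% to 82.4% of every bar, and the Cldn8 segment is at most 2.08% in RhoB-/- and at least 2.35% in WT libraries.

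Other tight junction genes were described from lists of 58 further genes, of which 33 passed the filter. Of these, 5 were called higher and 4 lower, with a median log2 fold change of 0.07, beside the 7.73% and 13.5% of all tested genes. Most other claudins were near 0. Of 18 in the table, 15 were below the filter, 5 of them (Cldn16, Cldn17, Cldn18, Cldn22 and Cldn24) listed at 0 in every library. Cldn1 and Cldn5 did not exceed 0.10 TPM in any library. Cldn12, a cation claudin, was at 17.6 to 32.4 TPM in WT and at 16.3 to 21.5 TPM in RhoB-/- animals and was not called (log2 fold change -0.27), nor was Cldnd1 (0.28). Cldn14 was low, at 0.99, 2.90, 3.02, 1.63 and 4.25 TPM in WT replicates 1 to 5 and 0.20 to 1.33 TPM in RhoB-/- libraries, and fell (log2 fold change -1.01, limma adjusted p = 0.0238), a call lost under 5 of 17 other settings.

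Of 7 tested membrane proteins of tight junctions other than claudins and the 10 genes, 4 were called higher and 1 lower. The shares of all tested genes were 7.73% and 13.5%, and the median log2 fold change of the 7 was 0.43. Ildr1, an angulin of tricellular contacts, rose from a mean of 101 ± 9.41 TPM to 175 ± 30.8 TPM (SD, n = 5), with a log2 fold change of 0.77 (SE 0.13, limma adjusted p = 0.00187). Lsr, another angulin, fell from 66.5 ± 15.3 to 43.8 ± 10.1 TPM (log2 fold change -0.59, SE 0.18, limma adjusted p = 0.0347), a call lost under 9 of 18 other settings. These 2 angulins thus moved in opposite directions. Igsf5, a relative of F11r, rose from 33.9 ± 3.07 to 55.2 ± 9.15 TPM (0.68, limma adjusted p = 0.00359), and the polarity protein Crb3 rose from 87.5 ± 8.24 to 123 ± 15.6 TPM (0.49, limma adjusted p = 0.0125). Of the 7 genes, 4 had every RhoB-/- library above every WT library, Ildr1, Igsf5 and Crb3 among them, beside 5.97% of all tested genes.

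Of 23 tested plaque proteins, which sit under the membrane beside Tjp1, 1 was called higher and 2 lower, beside 7.73% and 13.5% of all tested genes. Their median log2 fold change was 0.06. Cgnl1 (paracingulin), a junctional adaptor protein, had 9.13, 11.1, 5.76, 10.1 and 6.29 TPM in WT replicates 1 to 5 and 2.44 to 4.65 TPM in RhoB-/- libraries, without overlap. It fell by 1.06 on the log2 scale (SE 0.19, limma adjusted p = 0.00280). Amotl2 fell from 3.97 ± 0.852 to 2.06 ± 0.231 TPM (log2 fold change -0.69, limma adjusted p = 0.00627). Mpp5 (Pals1), a polarity scaffold, rose from 12.9 ± 1.47 to 17.7 ± 3.10 TPM (0.42, limma adjusted p = 0.0351), a call lost under 8 of 18 other settings. The most abundant plaque genes, Ybx3 (log2 fold change -0.27) and Llgl2 (0.30), were not called.

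**Figure D4:**
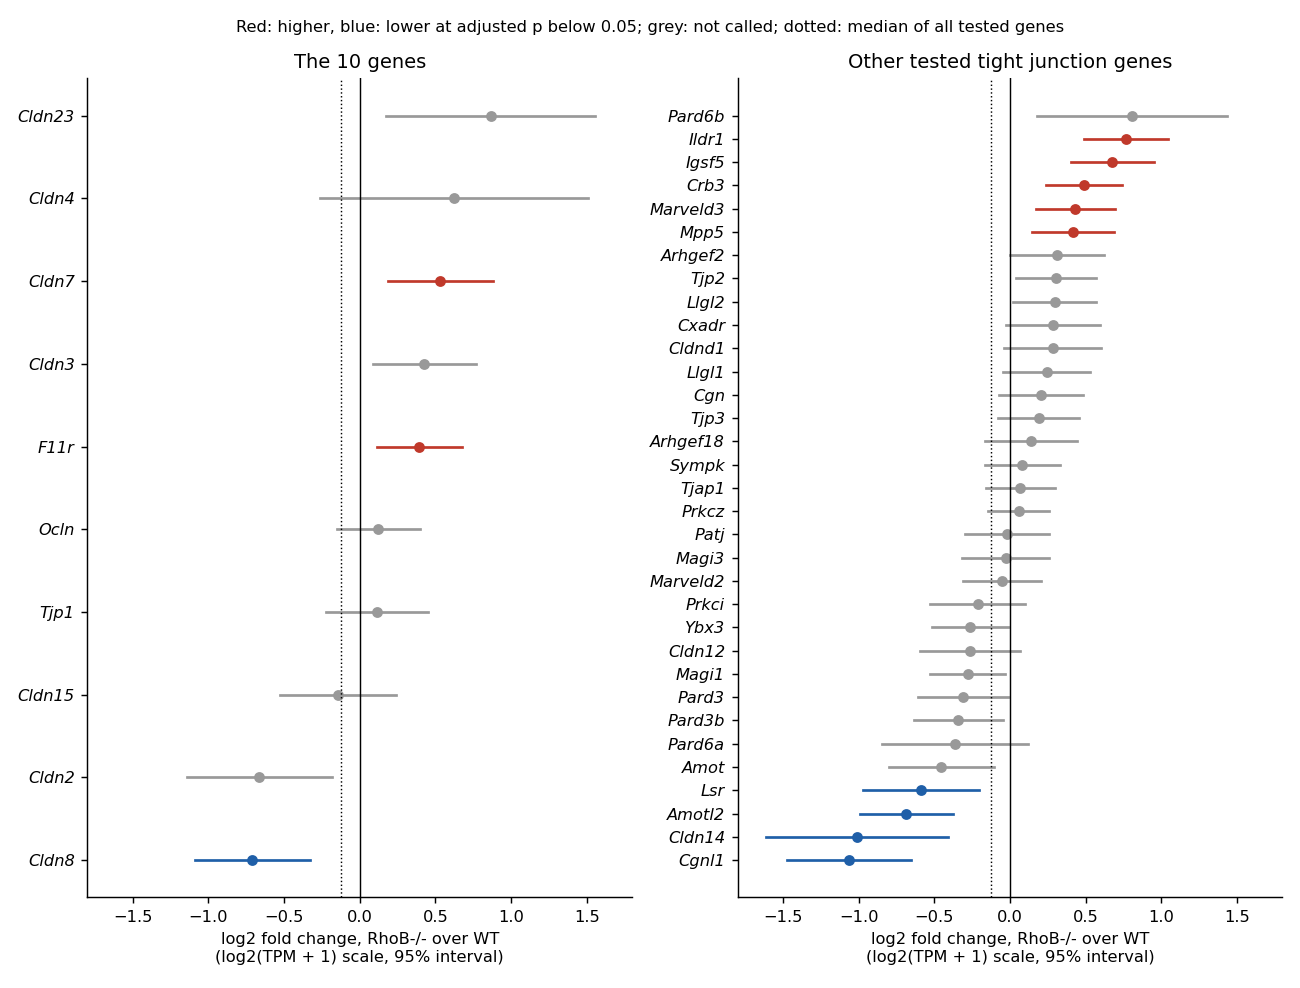
log2 fold change with 95% interval (horizontal axes, RhoB-/- over WT) for the 10 genes on the left and the 33 other tested tight junction genes on the right. Called genes lie on both sides of 0 in either panel, from Cgnl1 at -1.06 to Ildr1 at 0.77, and the dotted line marks the median of all tested genes at -0.13.

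The neighbouring junctions were described in the same way, beside the 7.73% of all tested genes called higher and 13.5% called lower. Of 13 tested adherens junction genes 5 were called higher and none lower, with a median log2 fold change of 0.21. Cdh17, the liver-intestine cadherin, rose from 241 ± 7.91 to 373 ± 84.8 TPM (0.60, limma adjusted p = 0.0125). Nectin2 rose by 0.57 (limma adjusted p = 0.0123), and the catenins Ctnnb1 and Ctnnd1 by 0.43 each (limma adjusted p = 0.0293 and 0.0319), with the calls of both catenins lost under 9 of 18 other settings. Of 9 tested desmosome genes 4 were called higher and none lower, with a median of 0.40. The desmosomal cadherins Dsc2 and Dsg2 each rose by 0.51 (limma adjusted p = 0.0251 and 0.0364), Perp by 0.45 (0.0287) and Pkp3 by 0.40 (0.0439), calls lost under 3, 8, 7 and 12 of 18 other settings in that order, while Dsp, the desmosomal plaque protein, was not called (0.16).

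Among 13 tested genes for claudin stability and junctional proteolysis, 4 were called higher and 3 lower, beside 7.73% and 13.5% of all tested genes. Their median log2 fold change was 0.07. Epcam, which holds Cldn7 at the membrane, was at 969 to 1319 TPM in WT and at 1124 to 1639 TPM in RhoB-/- animals and was not called (0.29, limma adjusted p = 0.140). St14 (matriptase), a protease that cleaves Epcam, rose by 0.67 (limma adjusted p = 0.00508), as did its inhibitor Spint2 by 0.56 (0.0139). Prss8 (prostasin), a membrane protease that acts with matriptase, changed the other way, with a log2 fold change of -0.64 (limma adjusted p = 0.00900). Wnk4, a kinase that acts on claudins, fell by 0.57 (limma adjusted p = 0.00258), and Rock2, a kinase that acts on actomyosin contraction, rose by 0.77 (limma adjusted p = 0.00519).

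Of 12 tested transcription factors known to act on claudin genes 1 was called higher and 3 lower, beside 7.73% and 13.5% of all tested genes. Their median log2 fold change was -0.13, the value of all tested genes. Grhl2, a grainyhead-like factor, was at 13.3 to 16.8 TPM in WT and at 10.4 to 12.0 TPM in RhoB-/- animals and fell by 0.44 (limma adjusted p = 0.00694). Hnf4g fell by 0.50 (0.0352) and Gata6 by 0.43 (0.0246), calls lost under 9 and 4 of 18 other settings. Cdx2 rose by 0.42 (0.0447), a call lost under 11 of 18 other settings. Klf4 (0.31) and Hnf4a (0.28), the most abundant of the list, were not called.

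Over the 80 tested genes of these 7 lists together, 19 were called higher and 10 lower, with a median log2 fold change of 0.13, beside 7.73% and 13.5% of all tested genes. Without RhoB-/- replicate 5 the counts were 10 and 8, beside 719 and 1116 among all tested genes. With libraries centred on the median they were 36 and 10, beside 2004 and 1608, and without mitochondrial genes they were 19 and 19, beside 1101 and 3729.

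Genes whose profile over the 10 libraries was closest to that of each called member were sought by the mean absolute difference of log2(TPM + 1), centred on each gene's mean. The closest to Cldn8 were Esrrg (0.0885), Unc119 (0.0961) and Gm14921 (0.102), where the median of all tested genes was 0.372. Esrrg and Gm14921 were low, with means of 2.23 and 1.52 TPM in WT and 0.936 and 0.672 TPM in RhoB-/- mice. Neither of them was called (limma adjusted p = 0.0557 and 0.0728), while Unc119 was called lower (0.0113). The closest to Cldn7 were Mapk13 (0.0530), Ldha (0.0552) and Tsc22d4 (0.0734), with a median of 0.384, and the closest to F11r were Tiam2 (0.0389), Perp (0.0466) and Ctsb (0.0467), with a median of 0.319. These distances carry both the genotype and the spread between mice, and were not tested.

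**Figure D5:**
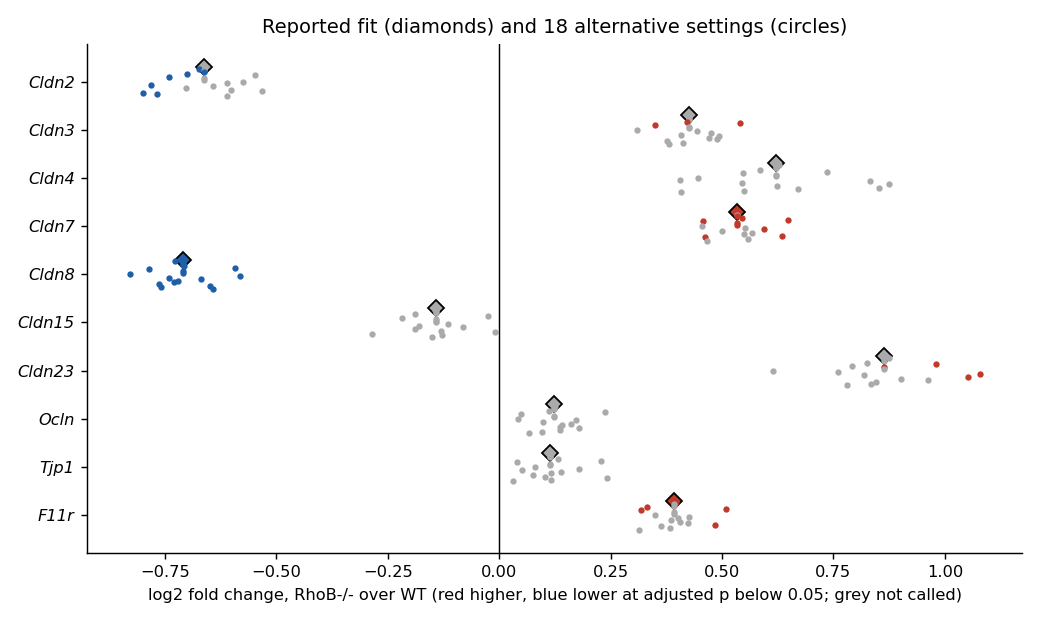
log2 fold change (horizontal axis, RhoB-/- over WT) of each of the 10 genes as reported (diamonds) and under 18 other settings (circles), red or blue where called higher or lower and grey where not. Each gene keeps its sign under every setting, Cldn8 is called under all 18, and Cldn4, Cldn15, Ocln and Tjp1 are called under none.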

How the data were processed

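The libraries hold RNA of colonic IECs, 5 from WT and 5 from RhoB-/- mice, with groups and replicate numbers from the labels. Per the study's methods, epithelium was released from the colon with EDTA and DTT, and paired-end reads of 150 bp were trimmed with SeqPrep and Sickle, aligned with HISAT2 in an orientation mode, assembled with StringTie and quantified with RSEM. The submitters' processing notes add edgeR and the build GRCm38.p6, with no versions. The deposited values are TPM, made by the authors with RSEM and rounded to 2 decimals, and counts were not used here. Whether RSEM then used strand to assign reads is not stated in the sources used here, so reads of overlapping antisense genes may not be separated.

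Genotypes were compared with limma 3.58.1 in R 4.3.3 (lmFit, eBayes with trend) on log2(TPM + 1) for the 12870 genes whose TPM averaged 1 or more. P-values were adjusted by Benjamini-Hochberg over those genes. The fit was also run on simulated data with 200 changed genes and noise drawn independently for each gene. Those settings differ from these data, so that run does not bear on the calls made here. The 10 genes and all lists were chosen with earlier results of these data known, so lists are described by counts and medians. Named genes were all 10 members, per list up to 4 called genes with the largest change and up to 2 with the highest mean TPM, the 3 closest profiles of each called member, and Rhob. Cell type and Hox markers, other claudins near 0 and Pard6b were named after their values were seen. The alternatives tried were a pseudocount of 0.1, no filter, a minimum mean TPM of 5, quantile normalization, centring on the median, leaving out mitochondrial genes, a replicate block, limma without the trend, unadjusted p with a fold above 1.5, exact permutation over the 252 labellings, and each library left out. RefSeq promoters matched 8 of the 10 genes, and 55141 of 55487 identifiers were found in GENCODE M21.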

Additional observations from a re-analysis of the deposited data

Results flagged for a closer look

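Of 106 groups of 5 values over 53 genes, the 10 tight junction genes and those named by rule beside them, 2 held a library far from the rest by Dixon's test, where chance gives about 1 in 20 groups, or 5.3. Rhob was at 110.87 TPM in RhoB-/- replicate 5, while the other RhoB-/- libraries held 0.09 to 0.57 TPM. Gata6, a transcription factor of the intestinal epithelium, was at 17.16 TPM in WT replicate 1, below the 24.2 to 25.5 TPM of the other WT libraries and within the 15.0 to 18.2 TPM of the RhoB-/- libraries. None of the 10 tight junction genes held such a library in either genotype.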

How the results depend on the processing

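No named gene changed sign under any setting. Cldn8 was lower and called throughout, while Cldn4, Cldn15, Ocln and Tjp1 were never called. With a pseudocount of 0.1 Cldn2 was called lower (log2 fold change -0.67, adjusted p = 0.0449), so that 2 of the 10 genes were lower, beside 1810 of all genes. With no filter on low TPM Cldn7 (0.53, adjusted p = 0.0817) and F11r (0.39, adjusted p = 0.0799) were not called, leaving 0 higher, beside 918 of the larger set of genes tested. In that fit 12 genes of the 7 junction lists were higher. With a minimum mean TPM of 5 Cldn2 was called (-0.66, adjusted p = 0.0431) and F11r was not (0.39, adjusted p = 0.0537), giving 1 higher and 2 lower. In the smaller set of genes tested there, 814 were higher and 1104 lower. After quantile normalization Cldn2 (-0.70, 0.0304) and Cldn3 (0.42, 0.00642) were called, giving 3 higher and 2 lower, and 1587 of all genes were higher and 1975 lower. Centred on the median, Cldn3 (0.54, 0.0103) and Cldn23 (0.98, 0.0443) were called, giving 4 higher, with 2004 of all genes and 36 of the junction lists higher. Without mitochondrial genes Cldn2 (-0.74, 0.0204) and Cldn3 (0.35, 0.0409) were called, giving 2 lower, with 3729 of all genes and 19 of the junction lists lower. Without the trend F11r was not called (0.39, 0.0552), leaving 1 higher, beside 965 of all genes. At an unadjusted p below 0.05 with a fold above 1.5, 1 was higher and 2 lower, with 1072 of all genes lower. By exact permutation Cldn23 (0.86) had an unadjusted two-sided p of 0.0635. The cause of these changes was not tested.

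Leaving out 1 library at a time gave log2 fold changes of -0.80 to -0.53 for Cldn2, 0.45 to 0.63 for Cldn7, 0.61 to 1.08 for Cldn23 and 0.31 to 0.48 for F11r. Cldn2 was called without WT replicate 3, RhoB-/- replicate 3 or RhoB-/- replicate 4, with an adjusted p from 0.0156. Of the 10 genes 0 to 2 were higher and 1 to 2 lower, of all tested genes 719 to 1154 were higher and 853 to 2868 lower, and of the junction lists 10 to 21 were higher and 6 to 13 lower. The lower count of all genes was 2868 without RhoB-/- replicate 3, 950 without WT replicate 2, 853 without WT replicate 4, 985 without RhoB-/- replicate 1 and 1116 without RhoB-/- replicate 5, against 1734 with all libraries.

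The labels number the replicates 1 to 5 in both genotypes, but the mice are different animals. Deviations of same-numbered libraries from their group means correlated at -0.0874 to 0.0720, so the numbers were not taken to pair the mice. With the replicate block Cldn23 was called (0.86, adjusted p = 0.0294) and F11r was not (0.39, adjusted p = 0.0849). In that fit 836 of all genes were higher and 1059 lower, and 12 of the junction lists were higher.

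The depth behind each TPM value is unknown, so counting error cannot be given, and p-values rest on the spread between 5 mice a genotype. RNA levels are not protein levels or permeability, which were not analysed here. Values are relative within a library, so abundant genes such as the mitochondrial ones shift the rest. The fold changes of low genes, Cldn14 and Amotl2 among them, are understated by the added 1.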

Other observations

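WT replicates 3 and 5 were both above the other 3 WT libraries in 4 of the 10 genes (Cldn3, Cldn4, Cldn7 and Cldn23) and in 1061 of the 12870 tested genes (8.24%), a pattern noticed in the data and not tested. Ildr1, Igsf5, Crb3, Mapk13 and Ldha were among them. Mapk13 and Ldha had been chosen for profiles close to that of Cldn7, so their presence does not extend the pattern. Tsc22d4, the next closest to Cldn7, was not among them, with 51.88 TPM in WT replicate 5 and 52.43 TPM in WT replicate 2. Klf4, a transcription factor of differentiated surface cells, was at 415 and 413 TPM in WT replicates 3 and 5, at 218 to 276 TPM in the other WT libraries and at 334 to 432 TPM in RhoB-/- libraries. Pard6b, a polarity protein of the tight junction plaque list, chosen after its values were seen, was at 26.8 and 26.2 TPM in WT replicates 3 and 5, at 11.6 to 17.1 TPM in the other WT libraries and at 17.6 to 53.5 TPM in RhoB-/- libraries (log2 fold change 0.81, limma adjusted p = 0.065).

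Among goblet cell markers 5 of 10 were called higher in RhoB-/- mice and none lower, beside 7.73% and 13.5% of all tested genes. The summed TPM of these markers was 14016 to 16037 in WT and 20158 to 23932 in RhoB-/- libraries. Enteroendocrine and tuft cell markers were split, with Pyy, Chga, Chgb and Insl5 lower and the tuft cell genes Trpm5 and Avil higher, of 8 tested. Their summed TPM, which pools both cell types and does not show the tuft cell genes apart, was 380 to 546 in WT and 162 to 262 in RhoB-/- libraries. The part of these cell types in the tight junction values was not tested.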
